A study of Rattus norvegicus with 6 samples.

Results

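Translation factors are the proteins that load an mRNA onto the ribosome, find its start codon and then move the ribosome along the coding sequence. The genes described here are those whose current rat symbol begins with Eif (initiation) or Eef (elongation), apart from Eif2ak3 and Eif4ebp1, which were left out of the set. Array probes were matched to symbols through the RefSeq accession printed for the probe. This gave 55 genes and 90 probes out of 13837 named genes and 41012 probes on the array. The brightest probe of a gene, by its mean log2 processed signal over all 6 arrays, stands for the gene, and the 35 further probes of 22 of these genes serve as a check. No probe was matched in this way to Eif2a, Eif4g1 or Eif5, which are therefore not analysed here.

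Initiation begins when eIF2 brings the initiator methionyl-tRNA to the small ribosomal subunit together with eIF1, eIF1A and the large eIF3 complex. The mRNA is recruited through its cap by eIF4E, the scaffold eIF4G and the RNA helicase eIF4A. Under heat, lack of amino acids or unfolded protein in the endoplasmic reticulum, kinases phosphorylate the alpha subunit of eIF2, which then blocks its exchange factor eIF2B and lowers initiation on most mRNAs. Elongation is carried by eEF1A, which delivers aminoacyl-tRNA, its exchange complex eEF1B, and the translocase eEF2, which is inactivated by its own kinase. In the small intestine, where the epithelium is renewed within days and secretes much protein, transcripts of this machinery are abundant.

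The tissue was jejunum of male Sprague-Dawley rats aged 6 weeks and weighing 200 ± 20 g, all housed at 25°C. The S3d group spent 2 h of each of 3 days at 35°C on a platform shaken at 0.1 g, and the control group did not. The labels give 10 rats in a group and describe every sample as total RNA mixed from 3 rats, so each array measures a pool and the spread between arrays is a spread between pools. The study's methods give fewer rats in a group than the labels, too few for the 3 pools to hold separate animals, and whether the pools share rats is not given in the sources used here. If they do, the p-values are too small. There were 3 arrays in each group, and p-values rest on this number of arrays. In pieces of whole jejunum, fewer cells of a type and less RNA per cell cannot be told apart.

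The group labels of the deposited sources contradict each other, and this bears on every direction below. Each column of the deposited normalized table had a rank correlation of 1.0000 with the scanner file of the other group that carries the same replicate number, and of 0.94 to 0.95 with the scanner file of its own sample. All values below follow the labels of the scanner files and are written as arrays labelled S3d against arrays labelled control. The groups are therefore exchanged relative to the deposited table and to the directions of the study. Read by the labels it carries, that table gave 41 of the 55 genes the opposite sign. The other 14 kept theirs, and for all of these but Eif4g2 quantile normalization of the scanner values turned the sign too. The array files alone do not settle which labelling is right. Heat shock genes were checked against the labels. Of Hspa1a, Hspb1 and Hsph1, tested out of a list of 5, none was higher on the arrays labelled S3d, and Hspb1 (log2 fold change -0.47, adjusted p = 0.029) and Hsph1 (-0.64, adjusted p = 0.0022) were lower, while Hspa1a differed by -0.85 without passing the test (adjusted p = 0.07). After quantile normalization Hspa1a passed (-0.98, adjusted p = 0.045) and Hspb1 did not (-0.35, adjusted p = 0.072).

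Each group lay on 1 slide of its own, so that the slide, the scan and the group cannot be told apart. The processed signal at the 75th percentile was 414.8 to 430.0 on the arrays labelled control and 1457.7 to 1558.3 on the arrays labelled S3d, a log2 difference of 1.85. The 8 spike-in probes, which detect RNA added in fixed amount, differed in the other direction, by -0.87 to -0.057 on the unscaled log2 scale with a mean of -0.50. Values were therefore set relative to the 75th percentile of the same array, and a level below is the log2 signal of a probe less that of the percentile. Correlations of these levels across probes were 0.993 to 0.995 among the arrays labelled control, 0.984 to 0.994 among the arrays labelled S3d and 0.925 to 0.939 between the groups. A probe was called at a limma adjusted p under 0.05. Of 31367 probes tested, 23202 (74.0%) were called, 39.5% as higher and 34.5% as lower on the arrays labelled S3d, and the groups did not overlap for 78.9%. Levels of different probes are not comparable, and only differences of the same probe are compared, apart from the summed levels of cell type markers below.

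All 55 translation factor genes were well above background on all 6 arrays and were tested. On the arrays labelled S3d, 17 were higher, 19 were lower and 19 did not pass the test, with a median log2 fold change of -0.043 against 0.085 for all probes tested. The 36 calls are a smaller share than the 74.0% of all probes called. The groups did not overlap for 42 of the 55 genes, against 78.9% of all probes. With a fold change of at least 1.5 as a second condition, 9 genes were higher (29.2% of all probes) and 7 were lower (23.3%). Among the brightest probes, the largest rise was that of Eif3e, at 4.36-fold, and the largest fall that of Eif5a, at 3.56-fold.

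**Figure D1:**
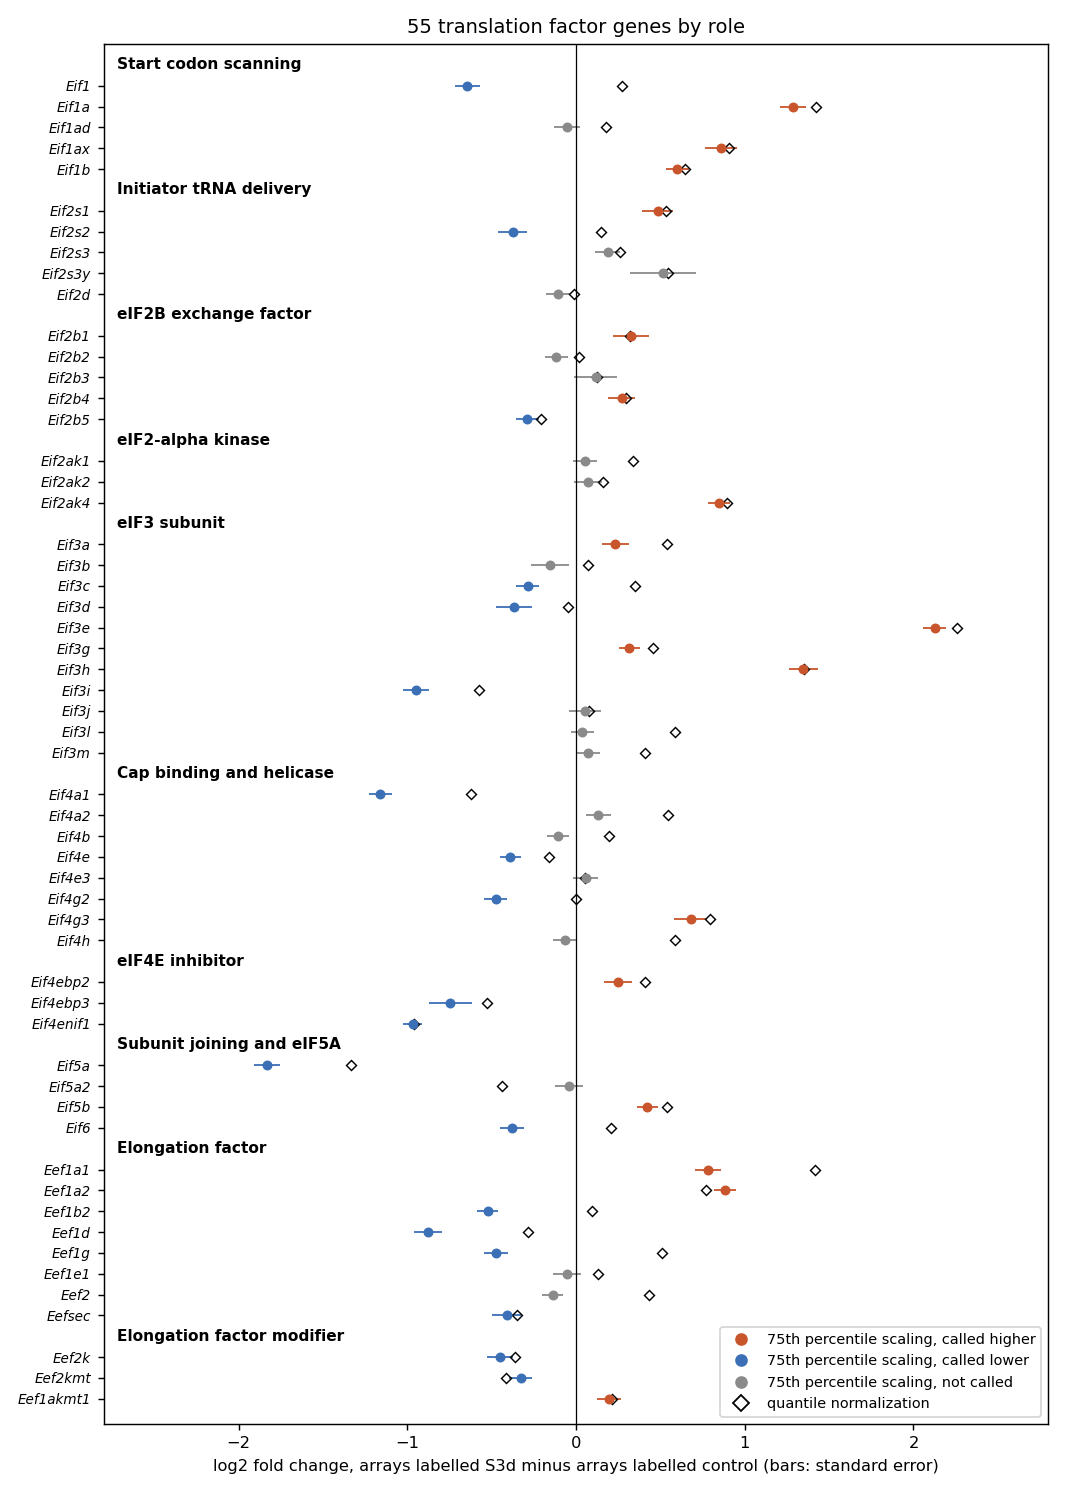
Log2 fold change of the brightest probe of each of the 55 genes, arrays labelled S3d minus arrays labelled control (3 arrays per group), grouped by role. Circles with standard error bars are the values after scaling to the 75th percentile, coloured by their call at an adjusted p under 0.05, and open diamonds are the values after quantile normalization. Eif3e at 2.13 and Eif5a at -1.83 lie farthest out, and most diamonds lie to the right of their circles.

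The direction of many of the brightest genes changed with the scaling. Of the 55 genes, 24 lay in the brightest decile of the tested probes and 40 in the brightest 2 deciles. In the brightest decile, the median log2 fold change of all 3137 probes was -0.49, with 65.0% of them lower and 15.9% higher on the arrays labelled S3d. Over the 28230 probes of the other deciles the median was 0.16, with 31.1% lower and 42.1% higher. The translation factors split in the same manner. Of the 24 in the brightest decile, 13 were lower and 2 were higher, with a median of -0.33, whereas of the other 31, 6 were lower and 15 were higher, with a median of 0.19. Against the median of their own brightness decile, 42 of the 55 genes lay above and 13 below.

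Quantile normalization, which gives all arrays the same distribution and leaves a median of -0.020 in the brightest decile, turned the balance. With it, 30 genes were higher (35.0% of all probes) and 12 were lower (35.6%), and the median of the 55 genes was 0.21 against 0.011 for all probes. All 17 genes called higher stayed so, 11 of the 19 called lower stayed so, and 4 of these 19, namely Eif1, Eif3c, Eif6 and Eef1g, became significantly higher. The calls that held their direction under 75th percentile scaling, quantile normalization, median centring and a second background correction (normexp, fitted without the spots far below background) numbered 11 higher and 11 lower. All 22 were also called in the same direction when any 1 array was left out. How many of all probes hold in this way was not counted, and 74.0% of them were called with the 75th percentile scaling. The 22 are therefore not a result particular to translation factors. These calls did not hold under every setting. Without scaling or with spike-in centring all 11 lower genes had positive values (Eif5a 0.012 and 0.51), and normexp on all spots called 3 of the 55 genes higher and 0 lower by limma. The 11 higher were Eif1a, Eif1ax, Eif1b, Eif2s1, Eif2ak4, Eif3e, Eif3h, Eif4g3, Eif5b, Eef1a1 and Eef1a2, and the 11 lower were Eif2b5, Eif3i, Eif4a1, Eif4e, Eif4ebp3, Eif4enif1, Eif5a, Eef1d, Eefsec, Eef2k and Eef2kmt.

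**Figure D2:**
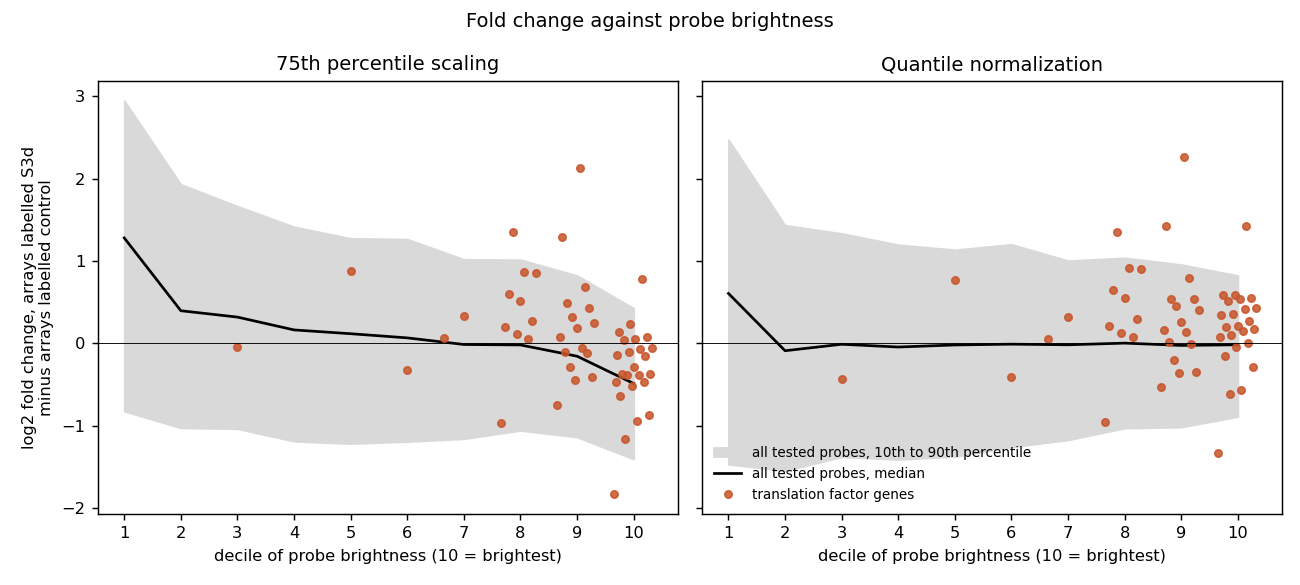
Log2 fold change, arrays labelled S3d minus arrays labelled control, against the decile of probe brightness, for the 75th percentile scaling (left) and quantile normalization (right). The line is the median of all tested probes, the grey band runs from their 10th to their 90th percentile, and points are the 55 genes, spread sideways within a decile. On the left the median drops from 1.28 in the dimmest decile to -0.49 in the brightest, which holds 24 of the genes, and on the right it is -0.020 there.

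Among the factors that scan for the start codon, Eif1a and Eif1b were higher on the arrays labelled S3d by the only matched probe of each. Eif1a, which encodes eIF1A, had levels of 1.39, 1.35 and 1.29 on the control arrays and 2.55, 2.74 and 2.59 on the arrays labelled S3d. The groups were far apart, with a log2 fold change of 1.29 ± 0.076 (SE, 3 arrays per group, as for every error below) and an adjusted p of 3.4e-05. Eif1ax, the X-linked gene of the same factor, measured 0.67, 0.79 and 0.47 against 1.48, 1.54 and 1.48, a difference of 0.86 ± 0.096 (adjusted p = 3.7e-04). Its second probe moved the other way, by -0.86 ± 0.12 (adjusted p = 9.3e-04), so Eif1ax has no direction that both probes share. Eif1b, a relative of eIF1, was higher by 0.60 ± 0.067 (adjusted p = 3.7e-04). Eif1, which guards start codon fidelity, was lower by its brightest probe (-0.65 ± 0.074, adjusted p = 4.2e-04), higher by the same probe after quantile normalization (0.28, adjusted p = 0.016), and higher by 2.60 ± 0.15 with its dimmer probe (adjusted p = 3.4e-05). Eif1ad, named for an eIF1A-like domain, overlapped between groups (-0.056 ± 0.076, adjusted p = 0.53). Whether the probes tell close relatives such as Eif1 and Eif1b, Eif1a and Eif1ax, Eif2s3 and Eif2s3y, Eif4a1 and Eif4a2 or Eef1a1 and Eef1a2 apart was not tested.

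The 3 subunits of eIF2 did not give the same call. Eif2s1 encodes the alpha subunit that the stress kinases phosphorylate. Its levels were 1.12, 1.16 and 0.99 on the control arrays and 1.45, 1.56 and 1.71 on the arrays labelled S3d, without overlap, and it was higher by 0.48 ± 0.092 (adjusted p = 0.0038). Eif2s2, the beta subunit, measured 5.55, 5.38 and 5.29 against 5.04, 4.99 and 5.06. It was lower by this probe (-0.38 ± 0.085, adjusted p = 0.0078), but the difference was 0.15 after quantile normalization (adjusted p = 0.12), and the other probes of Eif2s2 gave -1.06 (adjusted p = 3.3e-04) and 1.12 (adjusted p = 6.2e-05). For Eif2s3, the gamma subunit that binds GTP and the initiator tRNA, the levels were 1.40, 1.43 and 1.55 against 1.73, 1.63 and 1.59. The groups did not overlap, yet the difference of 0.19 ± 0.074 missed the threshold (adjusted p = 0.06). It passed under quantile normalization (0.26, adjusted p = 0.022). It also passed without control replicate 3, the control array nearest those labelled S3d (0.23, adjusted p = 0.045). Of the other probes of Eif2s3 1 was higher by 1.37 (adjusted p = 2.8e-05) and 1 differed by 0.071 (adjusted p = 0.31).

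The Y-linked copy of the gamma subunit, Eif2s3y, measured 0.51, 0.54 and 0.53 on the control arrays and 0.59, 1.27 and 1.26 on the arrays labelled S3d. S3d replicate 1 lay next to the controls and the other S3d arrays stood apart. The difference was 0.52 ± 0.19 (adjusted p = 0.051) over all arrays. It was 0.74 without S3d replicate 1, but that array is singled out by its own value, so the larger size is no support for a difference. Eif2d, which can deliver tRNA without eIF2, measured 1.89, 1.86 and 1.81 against 1.80, 1.64 and 1.80. Its groups did not overlap, and the difference of -0.10 ± 0.071 did not pass (adjusted p = 0.23), while its second probe was higher by 0.26 (adjusted p = 0.013).

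The 5 subunits of eIF2B, the exchange factor that recharges eIF2 with GTP, gave small differences, at most 0.32 in size. Eif2b5, the catalytic epsilon subunit, was the lower one, with 1.76, 1.76 and 1.80 against 1.40, 1.49 and 1.57. It was lower without overlap (log2 fold change -0.29 ± 0.069, adjusted p = 0.0096) and kept its call after quantile normalization (-0.21, adjusted p = 0.041). Eif2b1, the alpha subunit, measured -0.42, -0.54 and -0.70 against -0.31, -0.30 and -0.074 (0.32 ± 0.11, adjusted p = 0.032). Eif2b4, the delta subunit, measured 0.89, 0.68 and 0.84 against 1.01, 1.08 and 1.14 (0.27 ± 0.080, adjusted p = 0.022). Both were called higher with all arrays, but each lost the call when single arrays were left out. Eif2b1 had adjusted p-values of 0.074 and 0.088 without control replicates 2 and 3, and 0.052 and 0.088 without S3d replicates 2 and 3. Eif2b4 had 0.062 without control replicate 2, and 0.060 and 0.069 without S3d replicates 2 and 3. Eif2b2, the beta subunit, had levels of 2.14, 2.01 and 2.12 against 2.03, 1.94 and 1.95, and Eif2b3, the gamma subunit, had levels of 0.35, -0.0039 and -0.044 against 0.13, 0.19 and 0.33. The groups overlapped for both, with differences of -0.12 ± 0.068 (adjusted p = 0.17) and 0.12 ± 0.13 (adjusted p = 0.43).

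Of the kinases of eIF2-alpha in the set, Eif2ak4, which encodes the amino acid sensor GCN2, was higher on the arrays labelled S3d. Its levels were 0.65, 0.67 and 0.77 against 1.52, 1.52 and 1.59. The groups were clearly apart, at 0.85 ± 0.066 (adjusted p = 9.0e-05, 1.8-fold), and at 0.90 after quantile normalization. Eif2ak1, the haem-regulated kinase HRI, measured 3.18, 3.31 and 3.35 against 3.31, 3.36 and 3.33. Its groups overlapped (0.052 ± 0.071, adjusted p = 0.53), although quantile normalization gave 0.34 (adjusted p = 0.0085). Eif2ak2, the double-stranded RNA sensor PKR, measured 1.79, 1.67 and 1.65 against 1.69, 1.73 and 1.90, which overlapped as well (0.072 ± 0.084, adjusted p = 0.46). The call for Eif2ak4 and the lack of one for the other kinases does not show that they differ from each other, which was not tested.

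Within eIF3, the complex that holds the small subunit, mRNA and other factors together, 4 of the 11 measured subunits were higher, 3 were lower and 4 did not pass, with a median of 0.053, beside 39.5% higher and 34.5% lower among all probes. Eif3e measured 0.84, 0.70 and 0.78 on the control arrays and 2.87, 2.96 and 2.86 on the arrays labelled S3d. This was the largest difference among the brightest probes of the set, 2.13 ± 0.068 (adjusted p = 1.1e-05), and quantile normalization gave 2.26. Eif3h, an MPN-domain subunit, measured -0.53, -0.37 and -0.58 against 0.75, 0.94 and 0.88, higher by 1.35 ± 0.088 (adjusted p = 4.7e-05). Eif3i, a WD-repeat subunit that binds Eif3b and Eif3g, went the other way. Its levels were 4.68, 4.52 and 4.55 against 3.69, 3.56 and 3.67, lower, at -0.95 ± 0.076 (adjusted p = 1.0e-04) and still lower after quantile normalization (-0.57, adjusted p = 5.9e-04). Subunits of 1 complex thus differed by up to 2.13 in one direction and 0.95 in the other.

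The rest of eIF3 moved by less than 0.4. Eif3g was higher by 0.32 ± 0.063 (adjusted p = 0.0045). Eif3a, the largest scaffold subunit, was higher by 0.23 ± 0.080 (adjusted p = 0.037), with its second probe higher by 1.25. The brightest probe of Eif3a lost its call without control replicates 1 and 3 (adjusted p of 0.086 and 0.10) and without S3d replicates 2 and 3 (0.081 and 0.11). Eif3d, which can bind the cap itself, was lower, at -0.37 ± 0.11 (adjusted p = 0.02) but had adjusted p-values of 0.055 and 0.063 without S3d replicates 1 and 2, -0.046 after quantile normalization, and a second probe that was higher by 0.57 (adjusted p = 7.6e-04). Eif3c, a core subunit, was lower, at -0.29 ± 0.069 (adjusted p = 0.0097) and became higher after quantile normalization (0.35, adjusted p = 0.0022). Eif3b, Eif3j, Eif3l and Eif3m overlapped between the groups, with differences from -0.15 to 0.071. After quantile normalization Eif3l and Eif3m were higher, by 0.59 and 0.41, and the second probe of Eif3l was higher by 1.49 (adjusted p = 2.5e-05).

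**Figure D3:**
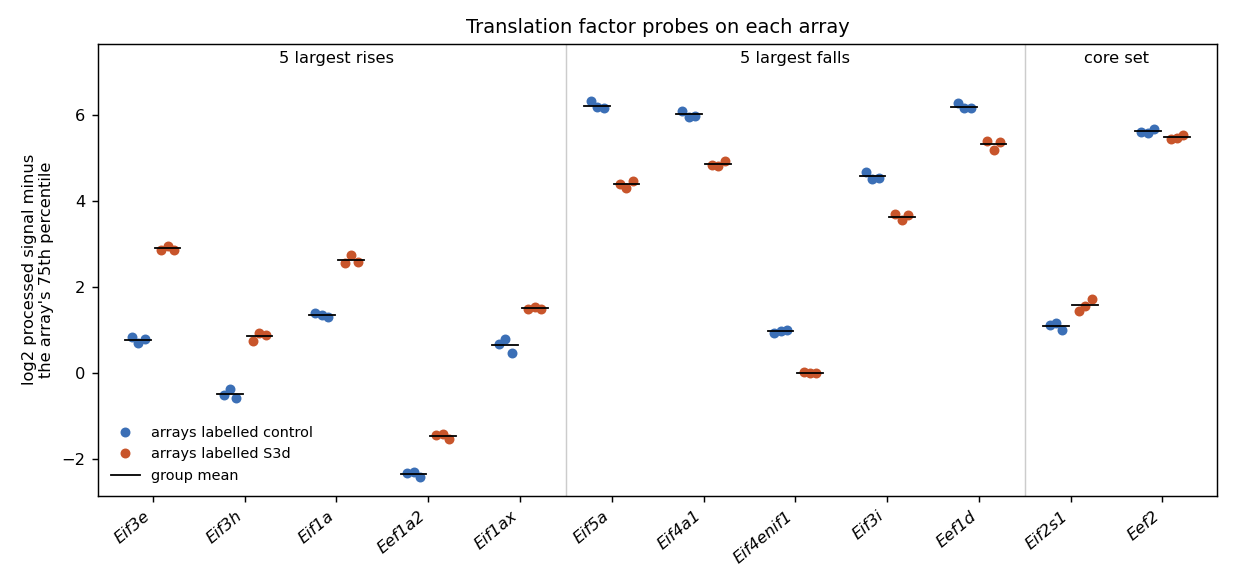
Level of the brightest probe on each array (log2 signal relative to the 75th percentile of the array) for the genes with the 5 largest rises and 5 largest falls among the called genes, and for Eif2s1 and Eef2. Each point is 1 array of RNA pooled from 3 rats, blue for arrays labelled control and orange for arrays labelled S3d, and bars are group means. The groups do not overlap for any of these genes, and the difference is smallest for Eef2 (-0.14).

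Among the factors of cap binding and unwinding, Eif4a1, the main RNA helicase of initiation, was lower on the arrays labelled S3d. Its brightest probe measured 6.10, 5.96 and 5.99 against 4.84, 4.81 and 4.93. It was lower, at -1.16 ± 0.070 (adjusted p = 3.7e-05) and at -0.62 after quantile normalization. Its 4 other probes did not settle on a direction, with values of 0.25, 0.59, -1.13 and -0.54. Eif4a2, its relative, measured 4.57, 4.48 and 4.35 against 4.62, 4.58 and 4.60. Those groups did not overlap, and the difference was 0.13 ± 0.076 (adjusted p = 0.16) or, after quantile normalization, 0.54 (adjusted p = 6.8e-04). The cap-binding protein gene Eif4e measured 3.21, 3.13 and 3.09 against 2.75, 2.75 and 2.76. It was lower, at -0.39 ± 0.061 (adjusted p = 0.0016) and at -0.16 after quantile normalization (adjusted p = 0.048), and its second probe gave 0.14 (adjusted p = 0.15).

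Eif4g2, an eIF4G relative without the eIF4E-binding part, measured 5.30, 5.29 and 5.21 against 4.87, 4.76 and 4.73 with its brightest probe, lower, at -0.48 ± 0.068 (adjusted p = 0.0011). After quantile normalization that difference was -0.00034 (adjusted p = 0.997). The 4 other probes of Eif4g2 gave 0.095, -1.01, 1.12 and -1.05, of which 2 were called lower and 1 higher. Eif4g3, a full eIF4G scaffold, was higher by 0.68 ± 0.097 (adjusted p = 0.0011) with its brightest probe and lower, at -2.25 ± 0.13 (adjusted p = 3.3e-05) with the other. The helicase partners Eif4b and Eif4h and the eIF4E relative Eif4e3 did not pass, at -0.11, -0.067 and 0.058. Both helicase partners passed as higher after quantile normalization (0.20 and 0.58). Of the other probes of Eif4b, the second was lower (-0.30), and the third and the fourth were higher, by 1.86 and 0.79, the latter over 5 arrays, since its spot on S3d replicate 3 was left out as an outlier.

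For the genes of proteins that hold eIF4E back from the scaffold, the brightest probes did not share a direction. Eif4ebp2, a binding protein that releases eIF4E when it is phosphorylated, measured 2.06, 2.18 and 2.31 against 2.46, 2.44 and 2.39. The difference of 0.25 ± 0.083 passed with all arrays (adjusted p = 0.036) but not when any array other than control replicate 3 was left out (adjusted p from 0.063 to 0.094), and the second probe was lower, at -1.21 (adjusted p = 9.9e-05). Its relative Eif4ebp3 was lower, at -0.75 ± 0.13 (adjusted p = 0.0023). Eif4enif1, which carries eIF4E into the nucleus and to P-bodies, measured 0.94, 0.98 and 0.99 against 0.014, -0.0073 and -0.0050. It was lower, at -0.97 ± 0.056 (adjusted p = 3.2e-05), and its second probe gave the same direction (-0.87 ± 0.17, adjusted p = 0.0044).

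Eif5a encodes the hypusine-bearing factor that eases peptide bonds on stalled ribosomes, and it showed the largest fall among the brightest probes of the set. The levels of Eif5a were 6.32, 6.18 and 6.18 on the control arrays and 4.40, 4.31 and 4.48 on the arrays labelled S3d. The difference was -1.83 ± 0.078 (adjusted p = 1.6e-05), and -1.33 after quantile normalization. The dim relative Eif5a2 measured -4.17, -4.31 and -4.11 against -4.18, -4.23 and -4.32 and overlapped (-0.043 ± 0.082, adjusted p = 0.65), with -0.44 after quantile normalization (adjusted p = 0.003). A second probe of Eif5a2 did not stand well above background on any control array and did so on all 3 labelled S3d. It entered the limma test only through the arrays labelled S3d, so its adjusted p (0.0018) cannot decide whether the groups differ. Normexp without the spots far below background called it lower (-1.11, adjusted p = 1.1e-05), and quantile normalization called it higher (0.97, adjusted p = 0.041). The median log2 fold change of all probes in its brightness decile was 1.28. With the scaling used for the levels above, it was at least 1.54-fold higher on the arrays labelled S3d (log2 0.63). That fold is the mean of the S3d arrays against, on each control array, the higher of the probe's own signal and the lowest signal well above background. The third probe was above background nowhere.

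Eif5b, the GTPase that joins the ribosomal subunits, was higher by 0.42 ± 0.062 (adjusted p = 0.0012), and its second probe by 0.58 ± 0.18 (adjusted p = 0.027). Eif6, which keeps free large subunits from joining, measured 5.84, 5.82 and 5.89 against 5.57, 5.43 and 5.40. It was lower, at -0.38 ± 0.070 (adjusted p = 0.0033) with the 75th percentile scaling and higher by 0.21 (adjusted p = 0.026) with quantile normalization, so its direction depended on the scaling.

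Elongation factor transcripts include some of the most abundant in a cell. Many of their mRNAs begin with a C followed by an unbroken run of pyrimidines, the terminal oligopyrimidine (TOP) element through which growth signals control their translation. To show windows with such a run beside windows without one, 30 bases around the RefSeq start (GRCr8) are given for 4 elongation factors. They reach from 10 before to 20 after that start, with any run of a C and at least 5 further C or T in capitals.
Eef1a1 (chr8:88225050-88225079, minus strand): ttggacgttCTTTTTCgcaacgggtttgcc
Eef1b2 (chr9:72074081-72074110, plus strand): ggccggtcccggCCCTTTTTCTCCCTCagc
Eef1g (chr1:215289805-215289834, plus strand): ctgcggaatcaccatggcggctggggtaag
Eef2 (chr7:9189219-9189248, minus strand): ccgcagccgccgccatcgtcggcgcgcttc
RefSeq promoter entries were matched for 50 of the 55 genes (53 start sites), and not for Eif3e, Eif3h, Eif4b, Eif4e3 and Eef1d. Such a run was found in 14 of the 53 windows (26.4%) against 20.3% of all 33469 promoter windows. It occurred in 5 of 17 windows of genes called higher, 5 of 19 of genes called lower and 4 of 17 of genes not called. A heat shock element (GAA, TTC and GAA, each pair 2 bases apart) and an ATF4 element (TGATGNAAT), each searched on both strands over the 250 bases before and 50 after the start, were in none of the 53 promoters, and in 0.80% and 1.09% of all promoters. A run or its absence in these windows is a description of the letters there and is not evidence of a working element or of its lack. Whether the RefSeq starts are the true starts of the mRNAs was not tested.

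Eef1a1, which encodes the main aminoacyl-tRNA carrier and has the TOP-like run shown above, was higher on the arrays labelled S3d. Its levels were 5.60, 5.54 and 5.54 against 6.35, 6.44 and 6.23. The difference was 0.78 ± 0.075 (adjusted p = 2.0e-04), where the probes of the brightest decile had a median of -0.49, and 1.42 after quantile normalization. Eef1a2, the form typical of muscle and neurons, measured -2.32, -2.30 and -2.42 against -1.44, -1.43 and -1.53, higher by 0.88 ± 0.067 (adjusted p = 8.0e-05). Its groups did not overlap either. Beside it, Myh11 of smooth muscle was higher by 0.98 (adjusted p = 0.001), Des of the same list was lower (log2 fold change -1.19, adjusted p = 5.1e-04), and of the neuronal genes Elavl4, Snap25 and Tubb3 were higher by 0.62, 0.53 and 0.54. Tagln of smooth muscle was lower as well (-0.96, adjusted p = 1.6e-04), and the neuronal genes Uchl1 (-0.22, adjusted p = 0.065) and Stmn2 (-0.00050, adjusted p = 0.997) did not pass, although Uchl1 was lower after quantile normalization (-0.33, adjusted p = 0.015). Their part in the result was not tested.

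The 3 subunits of eEF1B, which recharges eEF1A with GTP, were all lower with the 75th percentile scaling, and of these Eef1d alone remained so after quantile normalization. Eef1d was lower, with 6.29, 6.16 and 6.16 against 5.41, 5.19 and 5.37. The difference was -0.88 ± 0.084 (adjusted p = 2.0e-04) and shrank to -0.28 (adjusted p = 0.013) after quantile normalization. Eef1b2, whose window above holds a run of 15 pyrimidines, was lower, at -0.52 ± 0.063 (adjusted p = 5.2e-04), and the value was 0.094 (adjusted p = 0.31) after quantile normalization. Eef1g, in whose window no run was found, was lower, at -0.47 ± 0.070 (adjusted p = 0.0012) with its brightest probe and higher with the other probes, by 0.20 (adjusted p = 0.022) and 0.63 (adjusted p = 4.7e-04). Quantile normalization gave all 3 Eef1g probes a positive sign. Eef1e1, a small relative that sits in the multisynthetase complex, measured 2.54, 2.64 and 2.39 against 2.44, 2.45 and 2.52 and overlapped (-0.053 ± 0.083, adjusted p = 0.58).

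Eef2, the translocase, measured 5.61, 5.58 and 5.69 on the control arrays and 5.45, 5.47 and 5.54 on the arrays labelled S3d. The groups did not overlap, but the difference of -0.14 ± 0.065 did not pass (adjusted p = 0.096), and quantile normalization made it 0.43 (adjusted p = 0.0034). Eef2k, the kinase that inactivates eEF2, measured 1.86, 1.92 and 2.03 against 1.52, 1.54 and 1.39. It was lower, at -0.45 ± 0.078 (adjusted p = 0.0024) and kept this direction after quantile normalization (-0.36, adjusted p = 0.0072). Eef2kmt, which methylates eEF2, was lower, at -0.33 ± 0.069 (adjusted p = 0.0057). Eef1akmt1, which methylates eEF1A, was higher by 0.19 ± 0.069 (adjusted p = 0.042), a call that was lost without each of the control replicates and without S3d replicates 2 and 3 (adjusted p from 0.051 to 0.13). Eefsec, which carries selenocysteyl-tRNA, was lower with both probes, at -0.41 ± 0.084 (adjusted p = 0.0052) and -1.77 ± 0.094 (adjusted p = 2.5e-05).

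Different probes of the same translation factor often disagreed. Among the 22 genes with more than 1 tested probe, 10 (45.5%) had 1 probe called higher and another called lower, compared with 600 of 2626 named genes (22.8%). After quantile normalization these counts were 8 (36.4%) and 579 (22.0%). The median span between the lowest and the highest probe of a gene was 1.33 for the translation factors and 0.78 for all named genes with several tested probes, on the log2 fold change scale. Members have up to 5 probes, and a gene with more probes has more chances to show both directions. The 10 genes were Eif1, Eif1ax, Eif2s2, Eif3d, Eif4a1, Eif4b, Eif4g2, Eif4g3, Eif4ebp2 and Eef1g. Of the 22 second-brightest probes, 12 had the opposite sign to the brightest and 14 had the higher value of the pair.

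**Figure D4:**
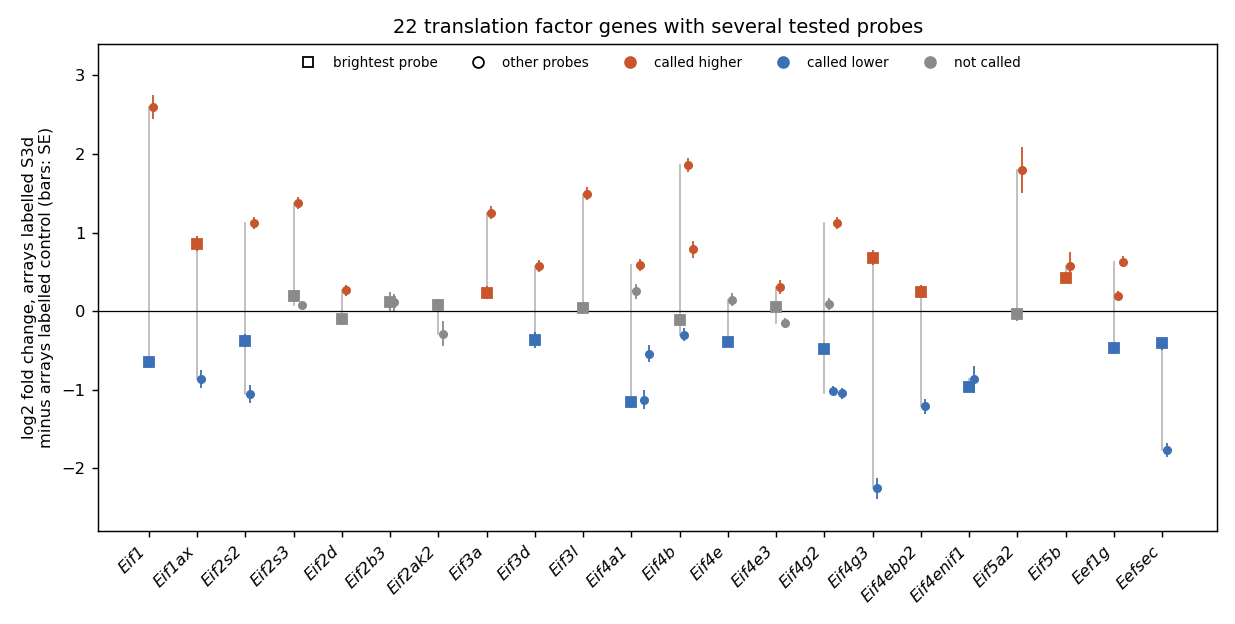
Log2 fold change with its standard error for every tested probe of the 22 genes with several tested probes, arrays labelled S3d minus arrays labelled control. Squares are the brightest probe and circles the others, coloured by their call, and a grey line joins the extremes. Eif1 spans from -0.65 to 2.60 and Eif4g3 from -2.25 to 0.68, and the upper Eif5a2 probe did not stand well above background on any control array.

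Of the 22 calls that held under the 4 settings named above, 19 had no other probe called in the opposite direction, 9 higher and 10 lower. The 3 exceptions were Eif1ax, Eif4a1 and Eif4g3. For 15 of the 22 a single probe was matched by RefSeq accession, so no second matched probe bears on them. Eif3e, Eif3h, Eif5a, Eef1a1 and Eef2k are among these 15. All tested probes gave the same call for Eif4enif1, Eif5b and Eefsec.

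Other genes of the pathway moved in both directions, in numbers to be read beside the 39.5% of all probes called higher and the 34.5% called lower. Of 20 tested cytosolic aminoacyl-tRNA synthetase and scaffold genes, which charge the tRNAs that eEF1A carries, 10 were higher and 6 lower, with a median of 0.36 (0.39 after quantile normalization), and these 16 calls are a share near the 74.0% of all probes. Farsb (1.76), Nars1 (1.48) and Vars1 (1.30) were the highest, and Eprs1 (-1.15) and the scaffold gene Aimp2 (-1.10) the lowest. Among the 6 tested genes that act on eIF2 phosphorylation or the eIF4E and eEF2 kinases, 1 was higher and 2 were lower, with a median of 0.11. The lower ones were Ppp1r15b (-2.47, adjusted p = 8.7e-06) and Ppp1r15a (-0.81, adjusted p = 0.0015), which encode the constitutive and the stress-induced partner of the phosphatase that dephosphorylates eIF2-alpha.

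The counts that follow are again to be read beside 39.5% higher and 34.5% lower among all probes. Of 8 tested genes that act at mRNA ends or in scanning, 3 were higher and 4 lower, with a median of -0.34 that became 0.39 after quantile normalization. Pabpc1, the main poly(A)-binding protein, was lower (log2 fold change -0.72) and became higher by 0.32 after quantile normalization, and Denr (0.64) and Mcts1 (-0.74), partners that recycle and reinitiate ribosomes, went opposite ways. Termination and recycling genes gave 3 higher and 1 lower of 5 tested, with Etf1, the release factor, at -0.62. Of the mitochondrial factors, 3 of 5 tested were higher and 2 lower. Dhps, the enzyme that starts hypusine formation on eIF5A, was higher by 0.48 (adjusted p = 6.3e-04), whereas Eif5a itself was at -1.83.

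Markers of other cell types moved with the groups as well, as did 74.0% of all probes. All 10 enterocyte genes with a probe, Vil1, Fabp1, Alpi and Cdx2 among them, were well above background on all 6 arrays, which is what the tissue label calls for. Of these, 8 were lower and 1 higher on the arrays labelled S3d, with a median of -0.87, but 4 were higher and 1 lower, with a median of 0.12, after quantile normalization. Their summed level was 11.87 to 12.00 on the arrays labelled control and at most 10.75 on those labelled S3d. Such a sum adds the signals of different probes, follows the brightest of them and depends on the scaling. Leukocyte markers were lower in all 4 tested of 6 (summed level 2.59 to 2.66 against 1.95 to 1.98), with Ptprc at -2.64. Goblet cell markers were lower in 2 of 3 (9.62 to 9.72 against 8.07 to 8.16), and after quantile normalization 2 were lower and Clca1 was higher (0.81). Smooth muscle markers were higher in 2 and lower in 2 of 6 (6.93 to 7.20 against 6.84 to 7.08), and neuronal markers higher in 3 of 5 (0.68 to 0.83 against 0.98 to 1.16). Of the proliferation genes, 3 of 4 were higher and 1 lower (5.35 to 5.47 against 5.30 to 5.40), with 3 higher and 0 lower after quantile normalization by limma, where the fourth, Cdk1, was at -0.13 (adjusted p = 0.23). The part of these shifts in the translation factor values was not tested.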

How the data were processed

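Jejunal RNA pools of the S3d and control groups were hybridised to 1-colour Agilent rat arrays, 3 per group. The authors deposited scanner files of Agilent Feature Extraction 10.7, whose intensity values (processed signal) were background-corrected but not normalized between arrays, and a table of log2 values whose columns share their sorted values (median 6.65, range 1.26 to 19.28), as quantile normalization gives. Its program is not given in the sources used here. Each of its columns matches a scanner file of the opposite group, and no sample was reassigned.

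The processed signal, on the log2 scale, was set relative to its 75th percentile on each array. Spots flagged as outliers and control spots did not enter, and spots of a probe were averaged. A probe was tested if either group had it well above background on all of its 3 arrays (31367 of 41012). The test was limma (3.58.1, R 4.3.3, lmFit with eBayes, 2-sided, no block) and p-values were adjusted over all of these probes by the Benjamini-Hochberg method. The fit was tested on simulated data. Of 41012 probes, 17512 were named, through RefSeq accessions and the GRCr8 gene table. Replicate numbers did not pair the samples (correlation of deviations -0.049 to 0.022).

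The members and gene lists were chosen with earlier results of these data known. Values per array are given for a core set (eIF2, eIF2B, the kinases, eIF4E, eIF4A, Eif4g2, Eif4ebp2, the eIF5A genes, Eif6, Eef1a1, Eef1a2, Eef1e1, Eef2, Eef2k, Eif2d), for the 5 largest rises and falls, and for members above background in 1 group only. Alternatives covered scaling, background correction, filters, outlier spots, the deposited table, the replicate block, trend, array weights, the methods' analysis of variance, thresholds, the choice of probe and left-out arrays. Normexp used the median signal, since the files used here hold no mean signal. The slide was not used as a block, since no slide holds both groups.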

Additional observations from a re-analysis of the deposited data

How the results depend on the processing

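The 55 genes gave 17 higher and 19 lower calls. They gave 30 and 12 after quantile normalization, 11 and 28 after median centring, 54 and 0 without scaling, 55 and 0 after centring on the spike-ins, 3 and 0 with normexp on all spots, 22 and 18 with normexp without the spots far below background (added after seeing the data), and 11 and 30 in the deposited table by its own labels. The second-brightest probe gave 10 and 7 of 22 genes, the higher ones including Eif5a2, whose probe was not above background on any control array. A fold change of at least 1.5 left 9 and 7, also at the study's unadjusted p under 0.01. Leaving out 1 array at a time gave 12 to 17 higher and 18 to 19 lower calls. The number of all probes called, 23202, was 19984 to 24132 under the filters, outlier spots kept, trend, weights, block, analysis of variance and left-out arrays, and 1752 with normexp on all spots, where 8 spots of control replicate 3 lie more than 1000 below their local background and the fitted background mean was -841 on that array, against -10.6 without them. No scaling moved the median of all probes from 0.085 to 1.93, and the spike-ins moved it to 2.43, so every lower call reverses by this shift. With the replicate number as a block, 12 genes were higher and 19 lower, and Eif2b1, Eif2b4, Eif3a, Eif4ebp2 and Eef1akmt1 lost their calls. It changed no other call.

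The log2 fold changes that changed sign were as follows. With quantile normalization they were Eif1 (0.28), Eif1ad (0.17), Eif2s2 (0.15), Eif2b2 (0.015), Eif3b (0.073), Eif3c (0.35), Eif4b (0.20), Eif4h (0.58), Eif6 (0.21), Eef1b2 (0.094), Eef1g (0.51), Eef1e1 (0.13) and Eef2 (0.43). With median centring they were Eif2s3 (-0.014), Eif2b3 (-0.087), Eif2ak1 (-0.15), Eif2ak2 (-0.13), Eif3j (-0.15), Eif3l (-0.17), Eif3m (-0.13), Eif4a2 (-0.070), Eif4e3 (-0.14) and Eef1akmt1 (-0.0075). Without scaling they were Eif1 (1.20), Eif1ad (1.79), Eif2s2 (1.47), Eif2d (1.74), Eif2b2 (1.73), Eif2b5 (1.56), Eif3b (1.69), Eif3c (1.56), Eif3d (1.48), Eif3i (0.90), Eif4a1 (0.69), Eif4b (1.74), Eif4e (1.46), Eif4g2 (1.37), Eif4h (1.78), Eif4ebp3 (1.10), Eif4enif1 (0.88), Eif5a (0.012), Eif5a2 (1.80), Eif6 (1.46), Eef1b2 (1.32), Eef1d (0.97), Eef1g (1.37), Eef1e1 (1.79), Eef2 (1.71), Eefsec (1.43), Eef2k (1.39) and Eef2kmt (1.52). With spike-in centring they were Eif1 (1.70), Eif1ad (2.29), Eif2s2 (1.97), Eif2d (2.24), Eif2b2 (2.23), Eif2b5 (2.05), Eif3b (2.19), Eif3c (2.06), Eif3d (1.97), Eif3i (1.40), Eif4a1 (1.18), Eif4b (2.24), Eif4e (1.95), Eif4g2 (1.87), Eif4h (2.28), Eif4ebp3 (1.60), Eif4enif1 (1.37), Eif5a (0.51), Eif5a2 (2.30), Eif6 (1.96), Eef1b2 (1.82), Eef1d (1.47), Eef1g (1.87), Eef1e1 (2.29), Eef2 (2.20), Eefsec (1.93), Eef2k (1.89) and Eef2kmt (2.02). With normexp on all spots they were Eif1ad (0.31), Eif2s2 (0.17), Eif2d (0.18), Eif2b2 (0.21), Eif3b (0.25), Eif3c (0.33), Eif3d (0.24), Eif4b (0.53), Eif4e (0.14), Eif4e3 (-0.032), Eif4g2 (0.17), Eif4h (0.43), Eif6 (0.21), Eef1g (0.21), Eef1e1 (0.35), Eef2 (0.48) and Eef2k (0.054). With normexp without the spots far below background they were Eif4b (0.13) and Eef2 (0.030). In the deposited table by its own labels, where the exchanged groups turn the sign by construction, they were Eif1a (-1.43), Eif1ax (-0.91), Eif1b (-0.65), Eif2s1 (-0.54), Eif2s3 (-0.26), Eif2s3y (-0.55), Eif2d (0.0083), Eif2b1 (-0.32), Eif2b3 (-0.13), Eif2b4 (-0.30), Eif2b5 (0.20), Eif2ak1 (-0.34), Eif2ak2 (-0.16), Eif2ak4 (-0.90), Eif3a (-0.54), Eif3d (0.043), Eif3e (-2.26), Eif3g (-0.46), Eif3h (-1.35), Eif3i (0.57), Eif3j (-0.077), Eif3l (-0.59), Eif3m (-0.41), Eif4a1 (0.61), Eif4a2 (-0.55), Eif4e (0.15), Eif4e3 (-0.053), Eif4g3 (-0.79), Eif4ebp2 (-0.41), Eif4ebp3 (0.52), Eif4enif1 (0.96), Eif5a (1.33), Eif5a2 (0.45), Eif5b (-0.54), Eef1a1 (-1.43), Eef1a2 (-0.77), Eef1d (0.28), Eefsec (0.35), Eef2k (0.36), Eef2kmt (0.41) and Eef1akmt1 (-0.21). With the mean of all tested probes they were Eif1 (0.98), Eif1ax (-0.0023), Eif2d (0.079), Eif2ak2 (-0.11), Eif3d (0.10), Eif4b (0.81), Eif4g3 (-0.79), Eif4ebp2 (-0.48), Eif5a2 (positive, size not measured) and Eef1g (0.12). With the second-brightest probe they were Eef1g (0.20), Eif1 (2.60), Eif1ax (-0.86), Eif2ak2 (-0.29), Eif2d (0.26), Eif3d (0.57), Eif4a1 (0.25), Eif4e (0.14), Eif4ebp2 (-1.21), Eif4g2 (0.095), Eif4g3 (-2.25) and Eif5a2 (at least 0.63). Both Eif5a2 results rest on the probe that was not well above background on any control array. Normexp without the spots far below background called that probe lower (-1.11). With single arrays left out, values ran from -0.00026 to 0.089 for Eif2ak1, -0.12 to 0.0034 for Eef1e1, -0.0079 to 0.077 for Eif3l, -0.10 to 0.0027 for Eif5a2 and -0.012 to 0.13 for Eif3j, all uncalled with all arrays. The filters, outlier spots, block, trend, weights and analysis of variance changed no sign. Beyond the values given above, the causes were not tested. The number of arrays limits the precision, and Eif5a2 alone lay in the 4 dimmest deciles of the probes.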
